A study of Mus musculus with 12 samples.

Results

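The genes described here are the developmental transcription factors of 13 families that are textbook targets of the Polycomb repressive complexes: Pax, Lhx, Tbx, Nkx, Six5 and its relatives, Dlx, Msx, Irx, Pitx, Hoxc, Hoxd, Sox and Wt. Members were chosen by symbol, as every named gene whose symbol begins with one of these family names followed by a digit, except Pax5, a B-cell factor. The rule found 113 members among the 20284 named genes of the array, 104 of them protein-coding and 9 non-coding RNAs that carry a family name, such as Dlx6os2. A further 11 symbols of the reference that fit the rule matched no probe. Each gene was represented by its brightest probe.

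Expression was measured in sorted bone marrow cells of C57BL/6 mice with 12 one-colour arrays. Of these, 6 arrays held LSK cells, the fraction negative for lineage markers and positive for Sca-1 and c-Kit that contains the stem and multipotent progenitor cells, and 6 held granulocyte-macrophage progenitors (GMPs). In each cell type the 6 conditions were wild-type, Tet2 knockdown (Tet2KD/KD), Ezh2-null (Ezh2-/-), double mutant (Tet2KD/KDEzh2-/-), and double mutant cells from mice with 1 of 2 diseases. MDS/MPN is a myelodysplastic disease with myeloproliferative features, and RAEB is refractory anaemia in which blasts are in excess. All cells had repopulated recipient mice after transplantation of fetal liver cells, so donor haematopoiesis was studied in hosts that may retain cells of their own. The age of the mice, the number of mice behind each RNA, any pooling and the way the alleles were made are not given in the sources used here.

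Ezh2 is the catalytic subunit of Polycomb repressive complex 2 (PRC2), which methylates lysine 27 of histone H3. The mark is read by PRC1 and is found mostly at promoters rich in CpG dinucleotides, with the genes of homeobox, T-box, paired-box and Sox factors as the classical examples. These factors specify tissues of the embryo, and most are silent in blood cells, where a few (Sox4, the Hoxa genes and others) have roles of their own. Tet2 oxidises methylated cytosine in DNA, a step towards loss of that methylation. Whether members are switched on when Ezh2 is lost is the question that the Ezh2-null arrays address.

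No group has a replicate, because each condition was measured once per cell type. A level is the log2 processed signal minus that of the 75th percentile of the gene spots of the same array, so 0 is a bright spot and about -4 is close to background. A difference is a difference of such levels, given with its standard error (SE) and adjusted p from limma over 13708 genes; the SE reflects how far effects varied between cell types and genotypes, and not the spread between mice. The 75th percentile ran from 168.5 to 389.4 intensity units, and the lowest signal called well above background by the scanner software from 11.7 to 16.1 units. The 8 arrays without disease lay on 1 slide, and the 2 diseased arrays of each cell type shared a further slide, so disease and slide cannot be told apart. All 14 tested markers of the LSK list were lower in GMPs, and 12 of 14 markers of the GMP list were higher, as the labels of the cell types imply. Tet2 averaged -1.01 on the 4 Tet2 knockdown arrays without disease and 0.91 on the 4 others, a difference of -1.92 (SE 0.27) with an adjusted p of 0.381 from limma. The probe of Ezh2 did not separate the genotypes, with a mean of 2.99 on the 4 Ezh2-null arrays and 2.97 on the 4 Ezh2 wild-type arrays; whether it lies in the deleted part is not given in the sources used here, so the genotype is unchecked by it.

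The promoters of the undetected members were rich in CpG. RefSeq promoter windows of the GRCm38.p6 assembly, 250 bases before to 50 bases after the start of the gene, were at hand for 77 of the 113 members. A window was called CpG-rich where the observed over expected CpG ratio exceeded 0.6 and the GC content exceeded 50%. This held for 63.6% of the 44 members with a window that were above background on 0 arrays, for 43.8% of the 16 above on 1 to 11 arrays and for 64.7% of the 17 above on all 12. Among other named genes above background on 0 arrays it held for 19.5% of 4537, among those above background on all 12 arrays for 71.6% of 8959, and among all other named genes for 51.5% of 16018. The share was thus lower in members above on some arrays than in the other 2 groups of members, and members above on all arrays did not exceed other genes of that kind. The median window of an undetected member held 19.5 CG dinucleotides, against 4 in other undetected genes and 20 in other genes detected on all arrays. By this measure the undetected members resembled expressed genes more than other silent genes; these are descriptions of sequence, and binding of PRC2 was not measured.

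The 250 bases before the start are shown for 4 members whose signal differed between LSK cells and GMPs and for 2 that stayed at background on every array. Nkx2-3 and Sox4 were higher in LSK cells, Lhx9 and Pax8 were higher in GMPs, and Hoxd13 and Sox2 were undetected. Each is written 5′ to 3′ on the strand of its gene, from RefSeq on GRCm38.p6, with every CG dinucleotide in capitals.
Nkx2-3 (chr19:43612075-43612324, plus strand): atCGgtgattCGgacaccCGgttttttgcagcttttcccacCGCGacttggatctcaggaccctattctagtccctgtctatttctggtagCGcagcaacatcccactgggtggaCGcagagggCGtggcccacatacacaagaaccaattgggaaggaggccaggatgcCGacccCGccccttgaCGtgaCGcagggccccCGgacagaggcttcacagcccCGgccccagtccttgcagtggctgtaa
Sox4 (chr13:28953700-28953949, minus strand): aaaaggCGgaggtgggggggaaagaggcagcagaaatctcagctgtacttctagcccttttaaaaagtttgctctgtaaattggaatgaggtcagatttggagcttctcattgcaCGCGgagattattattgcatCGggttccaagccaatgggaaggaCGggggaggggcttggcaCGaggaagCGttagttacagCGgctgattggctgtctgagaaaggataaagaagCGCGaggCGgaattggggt
Lhx9 (chr1:138842445-138842694, minus strand): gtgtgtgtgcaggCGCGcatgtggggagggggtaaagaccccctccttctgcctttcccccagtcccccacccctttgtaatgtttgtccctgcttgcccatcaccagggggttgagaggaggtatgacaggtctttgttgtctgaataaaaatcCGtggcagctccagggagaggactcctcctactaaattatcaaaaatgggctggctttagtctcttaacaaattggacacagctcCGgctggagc
Pax8 (chr2:24475600-24475849, minus strand): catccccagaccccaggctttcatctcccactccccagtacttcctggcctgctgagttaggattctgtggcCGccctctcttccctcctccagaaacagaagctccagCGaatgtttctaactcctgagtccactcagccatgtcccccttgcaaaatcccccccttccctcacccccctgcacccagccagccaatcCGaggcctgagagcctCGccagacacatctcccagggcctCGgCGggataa
Hoxd13 (chr2:74667975-74668224, plus strand): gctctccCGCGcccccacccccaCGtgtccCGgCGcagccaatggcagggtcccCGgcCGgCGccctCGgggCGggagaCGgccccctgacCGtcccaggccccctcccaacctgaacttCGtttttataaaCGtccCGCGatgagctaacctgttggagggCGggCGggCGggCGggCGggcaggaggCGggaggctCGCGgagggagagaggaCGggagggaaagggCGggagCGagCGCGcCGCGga
Sox2 (chr3:34649745-34649994, plus strand): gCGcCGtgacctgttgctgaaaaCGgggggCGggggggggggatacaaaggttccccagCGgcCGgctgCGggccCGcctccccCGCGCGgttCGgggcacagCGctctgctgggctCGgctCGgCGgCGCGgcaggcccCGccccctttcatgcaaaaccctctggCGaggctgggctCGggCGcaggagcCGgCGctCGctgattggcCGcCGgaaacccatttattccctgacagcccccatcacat

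Hoxd13 had the most CpG-dense window of these, with 37 CG dinucleotides in 300 bases and a GC content of 74.3%, and Sox2 had 27. Nkx2-3 had 15 and Sox4 had 12. Lhx9 and Pax8 had the fewest of the windows shown, at 6 and 7. Other members called between the cell types did not keep to this order. Lhx1, also higher in GMPs, had 31, and Sox6, lower in GMPs, had windows with 2 to 13. Msx3 and Six5, lower in GMPs as well, had 22 and 17.

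Most members were not detected in either cell type. The brightest probe of 71 of the 113 members (62.8%) was well above background on 0 of the 12 arrays, against 29.0% of all named genes, and that of 20 members (17.7%) was above on all 12, against 54.9%. Another 11 members were above on 2 to 11 arrays, and 11 on a single array, where 3.42% of all named genes were above on 1 array. Per array, between 24 and 30 members were above background, 21.2 to 26.5% of them, where 60.1 to 65.1% of all named genes were. In bulk samples, fewer cells of a type and less RNA per cell cannot be told apart, so a gene expressed in a small subset of the cells could lie below background here.

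The number of detected members did not move in a single direction with Ezh2 loss. In LSK cells 30 members were above background on the wild-type array, 24 with Tet2 knockdown, 25 on the Ezh2-null array and 28 on the double mutant array. In GMPs the numbers were 29, 25, 28 and 26. In both cell types the Ezh2-null array thus had fewer than the wild-type array, and the double mutant array had more than the Tet2 knockdown array. The diseased double mutants had 25 (MDS/MPN) and 28 (RAEB) in LSK cells, and 29 and 26 in GMPs. The wild-type array had the most or shared the most in both cell types, and the ranges of the Ezh2 wild-type arrays (24 to 30) and the Ezh2-null arrays without disease (25 to 28) overlapped. Counting a member where any of its probes was above background added 1 member on the LSK wild-type array and 1 on the GMP double mutant array.

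**Figure D1:**
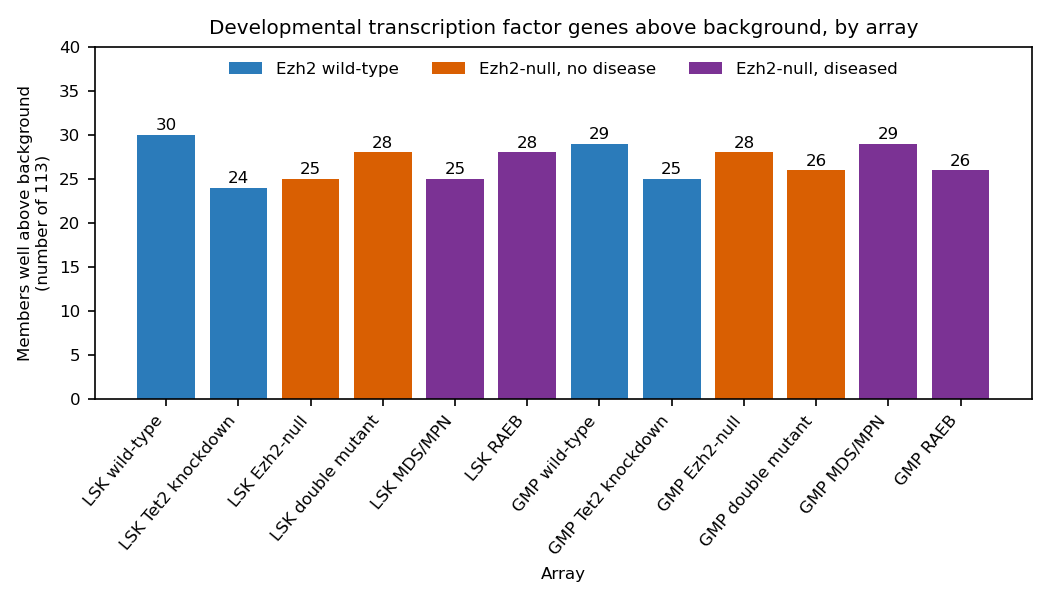
Bars show the number of the 113 members whose brightest probe was well above background on each array (1 array per bar), with LSK cells on the left and GMPs on the right. The counts run from 24 to 30, and the bars of Ezh2-null cells, without or with disease, do not exceed the 30 and 29 of the wild-type arrays.

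The families differed in how many members were detected. All 10 Hoxd members, which are the 9 Hoxd genes and the non-coding Hoxd3os1, stayed at background on every array, as did Wt1, a zinc-finger factor of kidney and gonad, and the non-coding Wt1os. Of the 9 Hoxc genes, 7 were undetected, Hoxc12 was above background on 6 arrays and Hoxc4 on 1. The other 2 Hox clusters, which are outside the family list, were detected more widely: 4 of 11 Hoxa genes were above background on all 12 arrays and 2 on none, and of 10 Hoxb genes 2 were above on all and 5 on none. No Hoxd gene passed -5.50 on any array.

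Among the other families, Msx was the one with every member detected: Msx1, Msx2 and Msx3, homeobox repressors of limb, tooth and neural tube, were above background on all 12 arrays. Sox, the HMG-box family, had 6 of 20 members above background on all arrays (Sox1, Sox4, Sox10, Sox12, Sox13 and Sox21) and 12 on none, among them Sox2, the pluripotency factor, and Sox17 and Sox18, factors of endothelium. Of 13 T-box (Tbx) genes, Tbx6, Tbx10 and Tbx22 were above on all arrays and 6 on none. Of 13 Nkx genes, Nkx2-2 and Nkx2-6 were above on all and 8 on none. Of 9 Pax members 0 were above on all arrays and 6 were above on none, including Pax6, the eye regulator. In the remaining families the genes above on all arrays were Dlx3 and Dlx6os2, Lhx6, Irx4, Six5 and Pitx3.

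The brightest members were few. In LSK cells the 5 with the highest mean level were Sox4 (3.77), a factor of progenitor cells and lymphocyte development, Lhx6 (3.10), a LIM-homeobox factor of interneurons, Dlx3 (1.89), a homeobox factor of skin and placenta, Nkx2-3 (1.62), a homeobox factor needed for spleen and gut-associated vessels, and Six5 (0.83), a homeobox factor related to sine oculis. In GMPs they were Lhx6 (3.04), Dlx3 (2.27), Sox4 (2.04), Sox13 (0.71) and Tbx22 (0.70), a T-box factor of the palate. Levels are per probe and not corrected for probe affinity, so this order describes signals and not molar amounts.

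**Figure D2:**
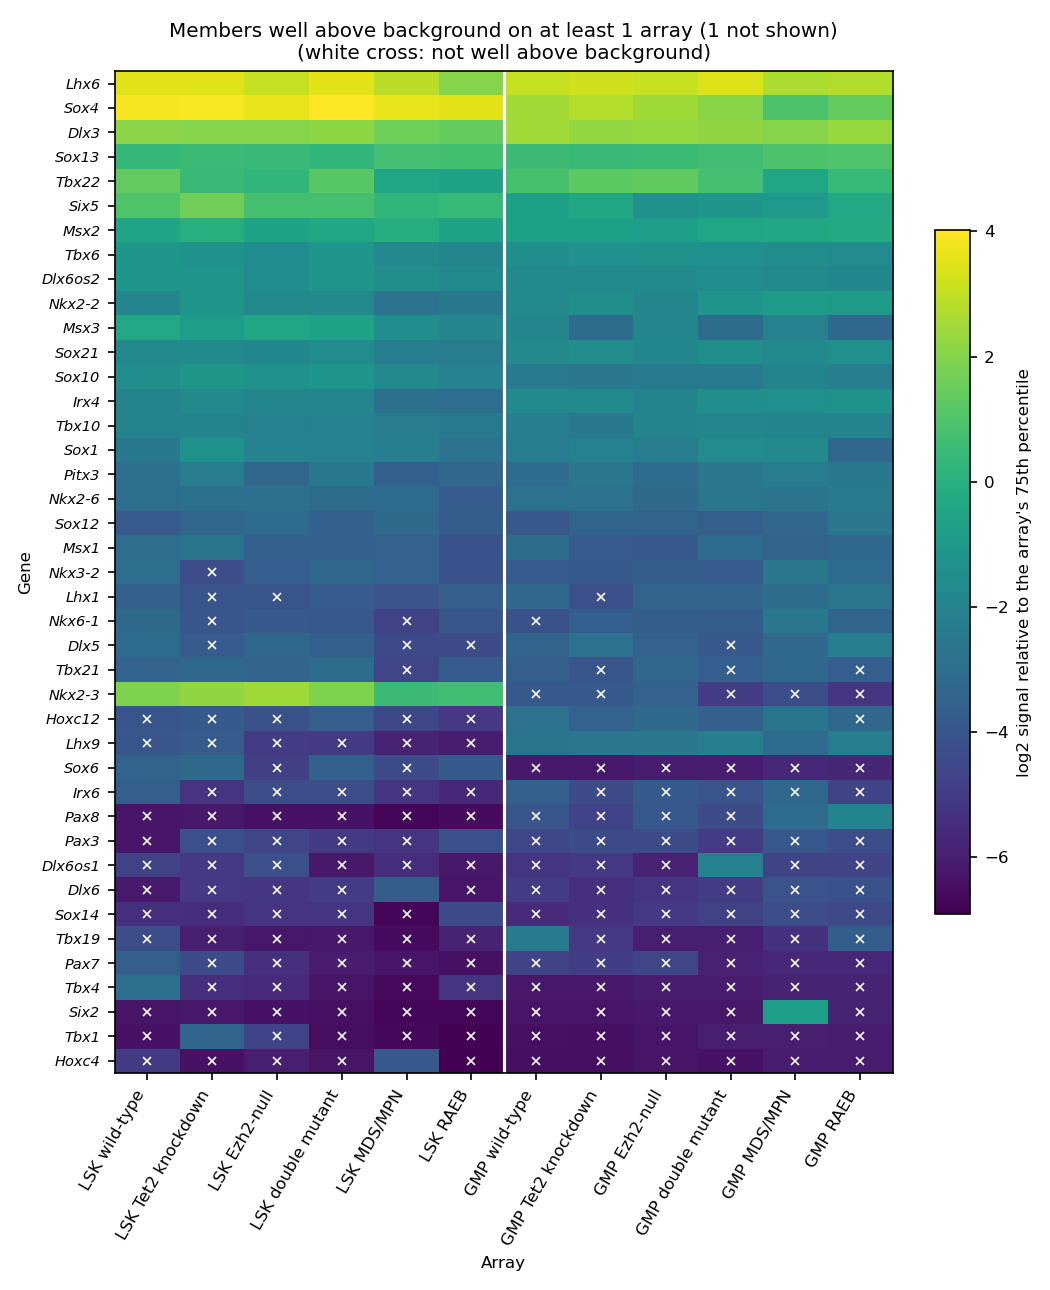
The heat map shows the level (log2 signal relative to the array's 75th percentile) of 41 of the 42 members above background on at least 1 array, ordered by the number of arrays and then by mean level, with LSK cells left of the white line and GMPs right of it. White crosses mark values not well above background: the upper 20 rows have none, and the lowest 10 rows have a single uncrossed cell each, spread over 7 of the 12 arrays.

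For some bright members the signal rested on 1 probe. Of the 113 members, 22 had several probes. The brightest probe of Lhx6 gave levels from 2.05 to 3.58, while its other 2 probes, 1 of them made to the same transcript, were above background on 0 arrays and stayed at or below -5.71. Nkx2-2, Sox21 and Tbx22 showed the same split, each with a brightest probe above background on 12 arrays and a second probe on 0. Both probes of Lhx9 other than the brightest were also above on 0 arrays. By contrast, both probes of Sox4 were above background on all 12 arrays, the second probe of Sox1 on 7 and that of Tbx6 on 6. The detection of Lhx6, Nkx2-2, Sox21, Tbx22 and Lhx9 is therefore that of a single probe, and which probe reports the gene was not tested.

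**Figure D3:**
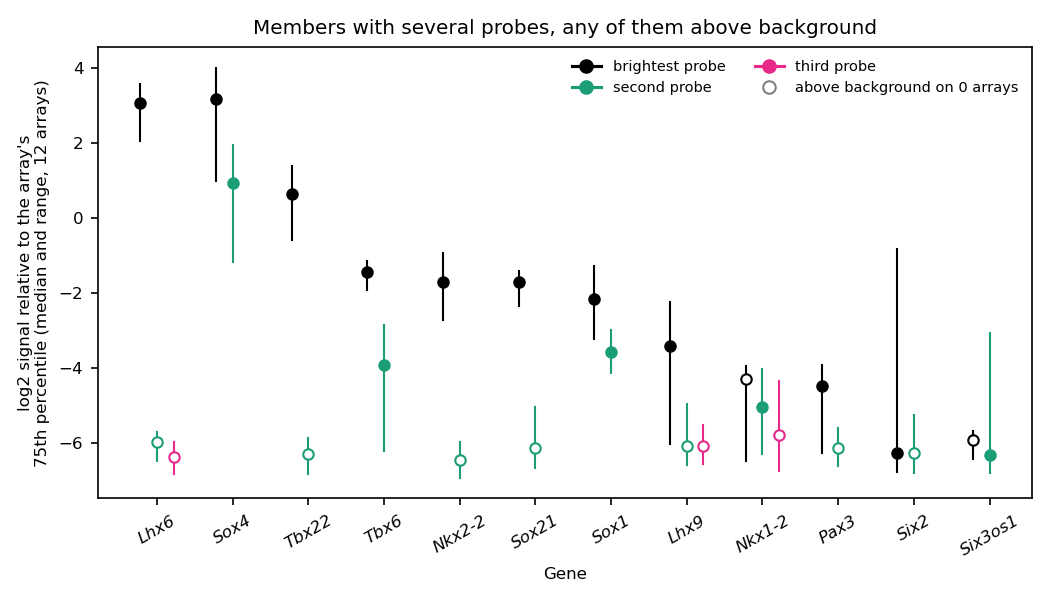
Points are medians and lines the ranges over 12 arrays of the level (log2 signal relative to the array's 75th percentile) of each probe, for the 12 members with several probes of which at least 1 was above background somewhere; open points are probes above background on 0 arrays. The second probe of Sox4 lies within reach of the first, and the further probes of Lhx6, Tbx22, Nkx2-2, Sox21 and Lhx9 lie near -6.

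No member appeared with Ezh2 loss. A gene was said to appear when 0 of the 4 Ezh2 wild-type arrays called it well above background and it was above on at least 2 of the 4 Ezh2-null arrays without disease; 0 of 113 members did so, where 132 of 20284 named genes did (0.651%). When 1 Ezh2-null array sufficed (2.22% of all genes), Dlx6os1 was the single member by its brightest probe, with a level of -2.09 on the GMP double mutant array and of -4.25 or below on the other 11 arrays. With any probe counted (2.28% of all genes), Six3os1, a non-coding RNA, was added, through a second probe at -3.07 on the same array. Asking for at least 3 arrays left 0 members (0.163% of all genes), and within LSK cells alone (0.493% of all genes) or GMPs alone (0.69% of all genes) the number was also 0, as it was for the reverse change (0.197% and 0.365% of all genes). At a background share of 0.651%, fewer than 1 of 113 genes would be counted, so the count of 0 does not set the members apart from other genes.

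The reverse change was seen for 1 member. Irx6, an Iroquois homeobox gene, was above background on the LSK and GMP wild-type arrays, at -3.61 and -3.53, and on 0 of the other 10 arrays, which include the 2 Tet2 knockdown arrays that also carry wild-type Ezh2. On the GMP MDS/MPN array, which is Ezh2-null, Irx6 reached -3.31 without being called above background. Its intensity there was 19.0 units, against 19.2 and 20.8 on the LSK and GMP wild-type arrays. It therefore met the definition of a gene that disappears with Ezh2 loss, as did 0.32% of all genes, while its level was below -3.61 on the Tet2 knockdown arrays too (-5.27 in LSK cells and -4.35 in GMPs). Its mean difference with Ezh2 loss was 0.07 (SE 0.27). With at least 3 arrays required (0.0444% of all genes), 0 members disappeared. With 1 array enough (1.71% of all genes), 6 did, among them Irx6, Pax7, Tbx1, Tbx4 and Tbx19.

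The 71 members undetected by their brightest probe were dark on Ezh2-null arrays as well; with any probe counted, 69 were undetected, since the second probes of Six3os1 and Nkx1-2 were each above background on 1 array. For the brightest probes of the 71, the processed intensity had a median of 3.46 units over all arrays. The highest single value of these probes on the 4 Ezh2-null arrays without disease was 17.9 units (Hoxc5, LSK Ezh2-null), and it was not called above background at its spot. Their median level lay between -6.60 on the LSK RAEB array and -5.73 on the GMP RAEB array.

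None of the members tested passed the threshold for Ezh2 loss. Of the 31 members tested, which are those above background on at least 2 arrays, 0 passed an adjusted p of 0.05 in limma for the 4 Ezh2-null against the 4 Ezh2 wild-type arrays without disease (0.19% of all genes tested were called, 0.168% higher and 0.0219% lower). At an unadjusted p of 0.05, 1 member passed, as did 8.78% of all genes. The median difference of the 31 members was -0.05, with 11 of them above 0, beside a median of -0.0044 and 49.1% above 0 over all genes tested. For the 20 members above background on all arrays the differences ran from -0.61 to 0.19. Their largest upper 95% limit was 0.65, so an increase of 2-fold (1 on the log2 scale) lies outside the interval of each, and both limits lay within 1 of 0 for 19 of them. Among the 20, Sox12, which had that upper limit, gave 15.9 to 32.6 units on the 8 arrays, and Msx1 gave 16.9 to 32.9. The limits of both rest on signals near background. Of the other 11 tested members, 10 were above background on 2 to 7 of the 8 arrays used here and Pax8 on 0, so their values rest in part, and that of Pax8 wholly, on signals below background, and their intervals set no limit on a change. Markers of neutrophils were lower without Ezh2 in these arrays: 0 of 9 tested were called, but all 9 had lower mean levels, with a median difference of -1.16. All 9 were also lower with Tet2 knockdown (median -0.80) and in double mutants against wild-type (median -2.03). The shift was thus not particular to Ezh2, and the part of these markers in the members' values was not tested.

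Six5 was the member with the smallest p. In LSK cells its level was 1.01 (wild-type) and 1.64 (Tet2 knockdown) with Ezh2, and 0.81 (Ezh2-null) and 0.79 (double mutant) without. In GMPs it was -0.74 and -0.41 with Ezh2, and -1.32 and -1.21 without. Within each cell type both Ezh2-null arrays lay below both others. The difference was -0.61 (SE 0.13, 95% limits -0.93 and -0.29, lower in 4 of 4 matched pairs), with an adjusted p of 0.211 in limma, which misses the threshold; over 18 alternatives it ran from -0.72 to -0.39 with adjusted p between 0.114 and 0.882. The next largest differences among members measured on every array of the brighter group were -0.39 (SE 0.26) for Msx1, -0.22 (SE 0.16) for Sox4 and -0.15 (SE 0.12) for Pitx3, a homeobox factor of lens and dopaminergic neurons.

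The largest positive differences were no bigger than their errors allow. Sox12 differed by 0.19 (SE 0.19), Tbx10 by 0.14 (SE 0.15), Nkx3-2 by 0.13 (SE 0.27) and Sox10 by 0.07 (SE 0.11), each with an adjusted p of at least 0.922 in limma. Tbx21, the T-box factor of T-helper and natural killer cells also known as T-bet, was higher in 4 of 4 matched pairs by 0.23 (SE 0.16, adjusted p = 0.822), and was above background on 8 of 12 arrays. No tested member had groups that did not overlap, a pattern found in 1.9% of all genes.

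**Figure D4:**
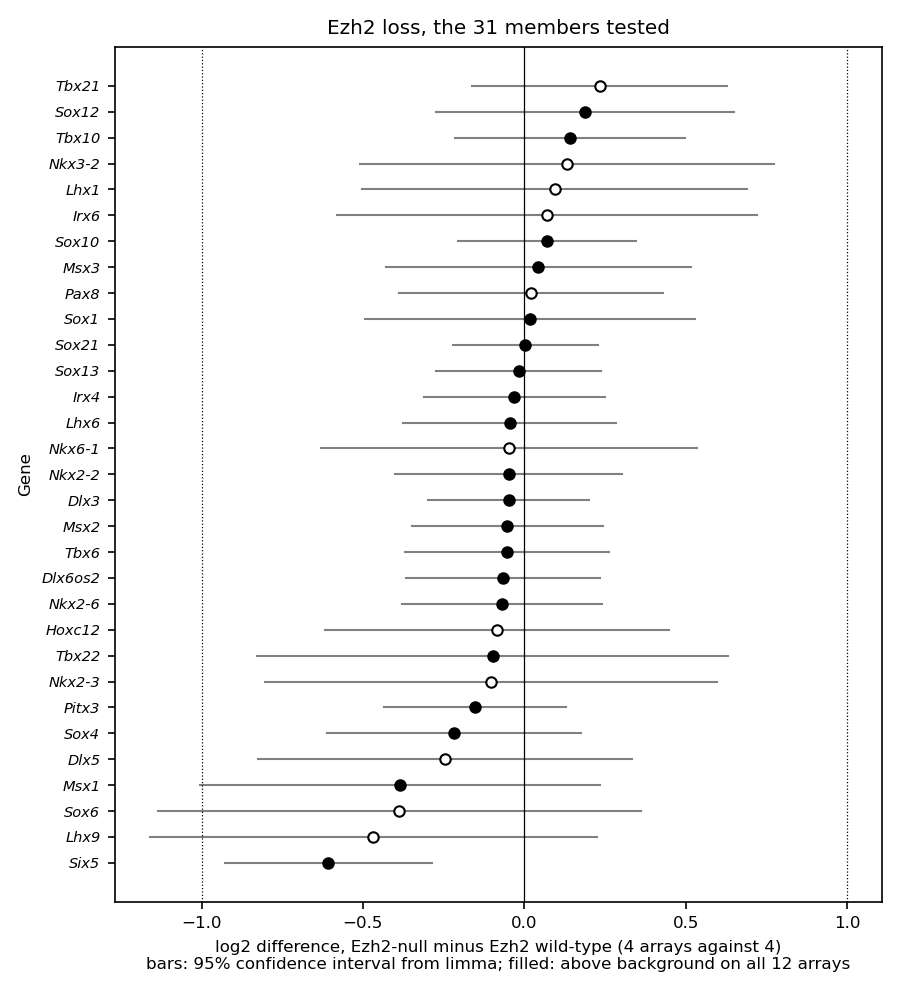
Points are log2 differences between the 4 Ezh2-null and the 4 Ezh2 wild-type arrays without disease for the 31 members tested, with 95% confidence intervals from limma; filled points are members above background on all 12 arrays, open points rest in part or wholly on signals below background, and dotted lines mark a 2-fold change. Points run from -0.61 (Six5) to 0.23 (Tbx21), and the upper limits of the filled points reach at most 0.65.

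Single pairs of arrays carry no test. Genes that differed at least 2-fold with the brighter array above background were counted. On the arrays without disease 21.2 to 26.5% of members were above background, against 61.0 to 64.0% of all named genes. Fewer members could therefore be counted, and low counts do not set the members apart. From wild-type to Ezh2-null in LSK cells 0 members were higher by 2-fold or more (2.36% of all genes were) and 4 were lower by 2-fold or more (1.9%): Pax7, Sox6, Tbx4 and Tbx22. From wild-type to Ezh2-null in GMPs 0 were higher (2.32%) and 2 were lower (1.18%), among them Tbx19. From Tet2 knockdown to double mutant, Nkx3-2 was higher (2.51%) and Tbx1 lower (1.88%) in LSK cells, and Dlx6os1 was higher (3.22%) and Dlx5 lower (1.55%) in GMPs. Most of these genes are dim, and Pax7, Tbx4, Tbx19, Tbx1 and Dlx6os1 were each above background on a single array of the 12.

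The Ezh2 effect was not found to differ between the cell types. The difference between the Ezh2 effect in GMPs and that in LSK cells passed the threshold for 0 of 31 members in limma (0% of all genes), with 1 member at an unadjusted p of 0.05. That member was Lhx9, with a difference of 1.36 (SE 0.25) and an adjusted p of 0.291. Lhx9 was not above background on any LSK array, where its level was -3.96 and -3.74 with Ezh2 and -4.95 and -5.06 without, so the LSK side of this value is measured below background. In GMPs its level was -2.67 and -2.61 with Ezh2 and -2.59 and -2.25 without.

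Other genes of the Polycomb pathway and of the same functional class showed a few changes. Of 76 further developmental transcription factors outside the 13 families, 56 were above background on 0 arrays and 10 on all 12. In limma 0 of the 15 tested changed with Ezh2 loss. The smallest p belonged to Gbx2, a homeobox gene, at -0.58 (SE 0.18, adjusted p = 0.382). One of them, T (brachyury), the T-box factor of early mesoderm, had a level of -0.18 on the GMP Ezh2-null array and of -5.62 or below on the other 11, the GMP double mutant (-5.95) included; it was singled out after its values were seen. The 11 PRC2 subunits were above background on all 12 arrays and 0 changed; Ezh1, the alternative catalytic subunit, differed by 0.0030 (SE 0.11). Of 17 tested PRC1 subunits 1 was higher, Bmi1, from 1.92, 1.98, 2.08 and 2.16 on the arrays with Ezh2 to 3.17, 3.10, 3.75 and 3.72 without, a difference of 1.40 (SE 0.12, adjusted p = 0.020 in limma). Of 20 tested partners and corepressors of homeodomain factors 1 was higher, Pbx3, a TALE cofactor of Hox proteins, by 1.91 (SE 0.18, adjusted p = 0.029). Of 9 trithorax and H3K27 demethylase genes tested 0 were called. The 4 arrays with Ezh2 and the 4 without did not overlap for Bmi1 or for Pbx3. In the 15 lists tested, Bmi1 and Pbx3 were the 2 genes called. Neither call was stable to the choice of arrays: without any 1 of the 8 arrays Bmi1 missed the threshold (1.33 to 1.48, adjusted p 0.054 to 0.099 in limma), and Pbx3 did so without any array but that of LSK Tet2 knockdown cells (1.76 to 2.03, adjusted p 0.076 to 0.117). With a Tet2 by Ezh2 interaction the adjusted p was 0.138 for Bmi1 and 0.130 for Pbx3, and with no filter on dim probes it was 0.055 for Pbx3.

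Between the cell types the members did differ, about as often as genes in general. In limma 11 of 31 tested members passed the threshold for GMP against LSK over all 12 arrays, 5 of them higher in GMPs and 6 lower, where 44.6% of all genes tested were called (25.7% higher and 18.9% lower). The groups did not overlap for 8 of the 31 members and for 25.6% of all genes. The diseased LSK arrays and the diseased GMP arrays lay on different slides, so among them cell type and slide cannot be told apart. On the 8 arrays of the first slide alone, 9 members were called, 2 higher in GMPs and 7 lower. Over all genes 4221 were higher there and 2975 lower, of 13708 tested. A member above background in a single cell type entered the test because of it, so these counts are not evidence about the members as a class. The median difference over all genes was 0.16, and -0.07 when arrays were scaled to spots above background everywhere, which changes the all-gene split from 3527 higher and 2585 lower to 2261 higher and 3607 lower; quantile normalization gave 2677 higher and 3105 lower.

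**Figure D5:**
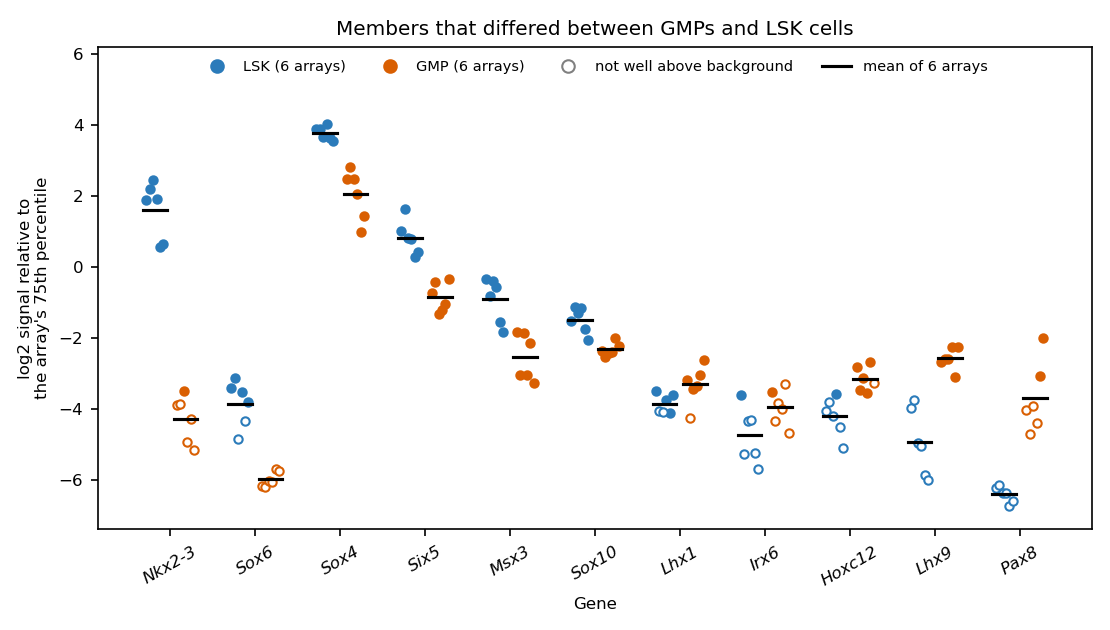
Each point is the level (log2 signal relative to the array's 75th percentile) of 1 array, for the 11 members that differed between the cell types, with 6 LSK arrays in blue and 6 GMP arrays in orange; open points are not well above background and bars are means. Nkx2-3 shows the widest gap, and for Sox10, Lhx1 and Irx6 the groups overlap.

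Nkx2-3 had the largest difference. Its level in LSK cells ran from 0.56 to 2.45 with a median of 1.91, and it was above background on 6 of 6 arrays. In GMPs it ran from -5.16 to -3.49 with a median of -4.09, and 1 of 6 arrays was above background. That array was the Ezh2-null one (-3.49), while the double mutant without disease, also Ezh2-null, was at -4.94. The difference was -5.89 (SE 0.23, adjusted p = 5.0e-06 in limma, lower in 6 of 6 pairs). Since 5 of the 6 GMP values lie below background, its exact size is not measured; with values raised to the lowest signal above background of their array it was -5.42, with normexp background correction -3.19, and over 21 alternatives, in all of which it was called, it ran from -6.16 to -3.19. Within LSK cells the 4 arrays without disease were at 1.90, 2.21, 2.45 and 1.92 and the 2 diseased arrays at 0.56 and 0.65, a gap that coincides with the slide. Markers of endothelium were higher in LSK cells as well: 10 of 12 listed markers were above background on all LSK arrays and 7 on all GMP arrays, their summed linear level, in multiples of the 75th percentile, was 189 to 304 in LSK cells and 78.8 to 105 in GMPs, and Cdh5 was above background on 0 arrays. Their part in the result was not tested.

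Sox4, Six5 and Msx3 were above background on all 12 arrays and lower in GMPs, with no overlap. Sox4 ran from 3.56 to 4.02 in LSK cells (median 3.77) and from 0.98 to 2.82 in GMPs (median 2.26), a difference of -1.73 (SE 0.22, adjusted p = 6.4e-04). Its second probe gave 1.40 to 1.94 in LSK cells and -1.17 to 0.49 in GMPs, also without overlap. Six5 ran from 0.28 to 1.64 in LSK cells (median 0.80) and from -1.32 to -0.33 in GMPs (median -0.89), a difference of -1.67 (SE 0.20, adjusted p = 4.8e-04). Msx3 ran from -1.83 to -0.33 in LSK cells (median -0.69) and from -3.27 to -1.83 in GMPs (median -2.58); its groups meet near -1.83 without crossing, and the difference was -1.62 (SE 0.24, adjusted p = 0.0013). These 3 members, with Nkx2-3 and Lhx9, were called in each of 21 alternatives. Leaving out the LSK or the GMP array of a condition gave the same result, so the alternatives are not all distinct.

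Sox10 and Sox6 were lower in GMPs in 6 of 6 pairs, with weaker footing. Sox10, a neural crest factor, ran from -2.05 to -1.14 in LSK cells (median -1.41) and from -2.53 to -2.00 in GMPs (median -2.38), so the groups overlap; the difference was -0.84 (SE 0.20, adjusted p = 0.010), and with normexp background correction it was -0.32 with an adjusted p of 0.143. Sox6, a factor of erythroid maturation and cartilage, ran from -4.85 to -3.14 in LSK cells, where 4 of 6 arrays were above background, and from -6.19 to -5.70 in GMPs, where 0 were. Since no GMP array measured it, the exact size of its difference is not measured. The mean of the 6 LSK levels was set against the higher of the array's lowest signal above background and the probe's own value. By this comparison Sox6 was 1.11-fold higher in LSK cells. LSK levels below background entered that mean, so the value is not a lower bound. The fitted difference was -2.13 (SE 0.27, adjusted p = 5.9e-04), which was lost with normexp background correction (-0.01, adjusted p = 0.983) and with a floor at the lowest signal above background (-0.25, adjusted p = 0.381). Erythroid markers were also higher in LSK cells, with 9 of 11 listed markers above background on all LSK arrays and 8 on all GMP arrays and a summed linear level of 45.7 to 57.0 against 5.88 to 10.4; their part in the result was not tested.

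Of the 5 members higher in GMPs, Lhx9 was the one above background on every GMP array. Lhx9, a LIM-homeobox factor of gonad and limb, ran from -3.09 to -2.24 in GMPs, above background on 6 of 6 arrays, and from -6.02 to -3.74 in LSK cells, above on 0 of 6. By the same comparison it was 3.15-fold higher in GMPs, here with every GMP level above background. That value depends on the background correction: with normexp no member was higher in GMPs by more than 0.78 on the log2 scale. The other probes of Lhx9 were above background on 0 arrays. The fitted difference was 2.36 (SE 0.34, adjusted p = 0.0011 in limma). Pax8, the paired-box factor of thyroid and kidney, was above background on 2 of 6 GMP arrays, both of them diseased, at -3.09 (MDS/MPN) and -1.99 (RAEB), while the other 4 GMP arrays gave -4.03, -4.71, -3.91 and -4.40. In LSK cells it ran from -6.75 to -6.15, above background on 0 of 6. By the same comparison Pax8 was 1.54-fold higher in GMPs, but 4 of the GMP levels in that mean were below background, so this is not a lower bound. The fitted difference was 2.72 (SE 0.40, adjusted p = 0.0012 in limma). With the floor the difference was 0.76 with an adjusted p of 0.112.

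Hoxc12, a posterior Hox gene, was above background on 5 GMP arrays and 1 LSK array. It ran from -3.54 to -2.67 in GMPs and from -5.10 to -3.58 in LSK cells, a fitted difference of 1.06 (SE 0.26, adjusted p = 0.013). Since 5 of the 6 LSK values lie below background, its exact size is not measured; it was 0.98 with the floor (adjusted p = 0.010) and 0.46 with normexp background correction (adjusted p = 0.048). On the 8 arrays of the first slide alone the difference was 0.68 with an adjusted p of 0.054. Irx6 (0.80, SE 0.24, adjusted p = 0.028 in limma) and Lhx1 (0.54, SE 0.18, adjusted p = 0.046), a LIM-homeobox factor of kidney and head, had overlapping groups. In the counts of alternatives that follow, each pair left out enters under both of its arrays. Irx6 was called in 9 of 20 alternatives; it lost the call without the Tet2 knockdown pair (0.78, adjusted p = 0.065), the Ezh2-null pair (0.86, adjusted p = 0.051) or the RAEB pair (0.75, adjusted p = 0.058). Lhx1 was called in 6 of 21; it lost the call without the wild-type (0.58, adjusted p = 0.078), Ezh2-null (0.52, 0.108), double mutant (0.57, 0.089), MDS/MPN (0.43, 0.116) or RAEB pair (0.45, 0.091).

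Cofactors through which homeodomain proteins bind DNA, and Polycomb subunits, differed between the cell types about as often as genes in general or less, beside the 44.6% of all genes called. Of 20 tested partners and corepressors 2 were higher in GMPs and 8 lower. Meis1, a TALE cofactor of Hox proteins in stem cells, was lower by 3.33 (difference -3.33, SE 0.11), and Eya2, a coactivator that binds proteins of the sine oculis family, ran from 3.35 to 4.36 in LSK cells and from -3.48 to -1.68 in GMPs (difference -6.10, SE 0.31). Lmo1 (2.38, SE 0.18) and Lmo4 (1.01, SE 0.13), LIM-only proteins that share partners with Lhx factors, were higher. Of 15 tested developmental factors outside the families 4 were higher, among them Hlx, a haematopoietic homeobox gene (1.38, SE 0.22), and Vax2 (0.56, SE 0.11), and Gbx2 was lower (-1.62, SE 0.17). Of the PRC2 subunits 2 of 11 were higher (Phf19, 0.65, and Jarid2, 0.48) and 2 lower (Phf1, -1.61, and Ezh1, -0.61). Of 17 PRC1 subunits 2 were higher and 5 lower, including Cbx2 (-2.05), Phc1 (-1.33) and Cbx6 (-1.23). All of these passed an adjusted p of 0.05 in limma.

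Tet2 knockdown changed no member past the threshold. In limma 0 of 31 members and 0% of all genes were called for the 4 Tet2 knockdown against the 4 other arrays without disease, with 5 members and 5.74% of genes at an unadjusted p of 0.05. Pitx3 had the smallest p: its level was -2.26, -2.50, -2.58 and -2.55 on the Tet2 knockdown arrays and -2.89, -3.30, -3.09 and -3.09 on the others, with no overlap. The difference was 0.62 (SE 0.12, higher in 4 of 4 pairs, adjusted p = 0.674). Msx3 was lower in 4 of 4 pairs by a difference of -0.76 (SE 0.20, adjusted p = 0.781), with the largest gaps in GMPs, from -1.83 and -1.87 to -3.05 and -3.04. Sox1 (0.53, SE 0.21) and Nkx2-2 (0.41, SE 0.15) were further values of this kind. In single pairs of arrays, without a test, LSK cells with Tet2 knockdown had Sox1 and Tbx1 at least 2-fold higher than wild-type (1.77% of all genes were) and Irx6, Nkx3-2 and Tbx4 lower (2.75%), and GMPs had 0 members higher (1.14%) and Lhx1, Msx3 and Tbx19 among those lower (1.64%). From Ezh2-null to double mutant, Sox6 was higher (1.17%) and 0 members lower (1.27%) in LSK cells, and Dlx6os1 was higher (1.32%) and Msx3 and Nkx2-3 lower (1.29%) in GMPs. Msx3 was the member lower in both GMP pairs. Pitx3 and Sox21 were the 2 members whose groups did not overlap, beside 1.05% of all genes.

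Double mutant cells without disease were compared with wild-type cells, 2 arrays against 2. In limma 0 of 31 members were called (0% of all genes), with 0 at an unadjusted p of 0.05, and the groups did not overlap for 9 members against 15.1% of all genes. The largest values were Sox1 at 0.55 (SE 0.35) and Pitx3 at 0.46 (SE 0.39) upwards, and Msx3 at -0.71 (SE 0.42) and Irx6 at -0.59 (SE 0.41) downwards. These arrays are also part of the Ezh2 and Tet2 comparisons, so the values are not independent of them.

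Diseased double mutants were compared with the other double mutants, 4 arrays against 2. In limma 0 of 31 members were called (0.0073% of all genes), with 2 at an unadjusted p of 0.05, and 4 had groups that did not overlap within this contrast (14% of all genes). Lhx6 was at 3.58 and 3.44 without disease and at 2.88, 2.05, 2.66 and 2.74 with it (difference -0.93, SE 0.25, adjusted p = 0.256). Tbx22 was at 1.20 and 0.76 without and at -0.45, -0.60, -0.45 and 0.41 with it (difference -1.25, SE 0.39, adjusted p = 0.273). The others of the 4 were Tbx6 (-0.42, SE 0.20) and Sox13 (0.38, SE 0.17), factors of mesoderm and of T cells. Against the double mutant array of the same cell type, without a test, 2-fold differences were counted here too. LSK cells with MDS/MPN had Dlx6 and Hoxc4 higher (3.61% of all genes were) and Nkx2-2, Nkx2-3, Pitx3, Tbx21 and Tbx22 lower (4.34%), and LSK cells with RAEB had 0 members higher (3.17%) and Hoxc12, Irx4, Lhx6, Msx3, Nkx2-3 and Tbx22 lower (4.37%). GMPs with MDS/MPN had Nkx3-2, Nkx6-1, Pax8 and Six2 higher (3.33%) and Dlx6os1, Sox4 and Tbx22 lower (3.57%), and GMPs with RAEB had Dlx5, Pax8 and Sox12 higher (5.84%) and Dlx6os1 and Sox1 lower (6.45%). Nkx2-3 was thus lower in both diseased LSK arrays and Pax8 higher in both diseased GMP arrays.

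In LSK cells the median of the 31 members was lower by 0.60 (difference -0.60) in MDS/MPN and by 0.71 (difference -0.71) in RAEB than in the double mutant, beside 0.12 and 0.16 over all genes tested; in GMPs it was 0.26 and 0.12, beside 0.23 and -0.01. The median level of the 71 undetected members moved likewise, from -6.26 to -6.59 and -6.60 in LSK cells and from -6.05 to -5.73 and -5.73 in GMPs, with the 75th percentile at 250.8, 369.2 and 389.4 units in LSK cells and 194.8, 188.8 and 168.5 in GMPs. The 9 tested markers of neutrophils were all higher with disease, with a median difference of 2.55 and 0 called. The part of the scaling or of these cells in the members' shift was not tested, and disease cannot be told apart from the slide.

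RAEB and MDS/MPN shared a slide within each cell type. In limma 0 of 31 members were called for RAEB against MDS/MPN (0% of all genes), with 1 at an unadjusted p of 0.05: Sox1, at -2.73 and -3.22 in RAEB and -2.23 and -1.71 in MDS/MPN (difference -1.01, SE 0.35, adjusted p = 0.974). The groups did not overlap for 2 members and for 13% of all genes. Pax8 in GMPs was at -1.99 in RAEB and -3.09 in MDS/MPN.

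The 11 of 113 members above background on a single array, beside 3.42% of all named genes, were spread over genotypes. Pax7, a muscle stem cell factor, and Tbx4, a hindlimb factor, were above on the LSK wild-type array, at -3.59 and -2.93. Tbx19, a pituitary factor, was above on the GMP wild-type array, at -2.46. Tbx1 was above on the LSK Tet2 knockdown array at -3.40, Dlx6os1 on the GMP double mutant array at -2.09, Dlx6 and Hoxc4 on the LSK MDS/MPN array at -3.67 and -3.86, and Pax3 and Sox14 on the LSK RAEB array at -4.26 and -4.36. Six2, a factor of kidney progenitors, was above on the GMP MDS/MPN array, with an intensity of 106.9 units (level -0.82) against at most 3.60 units on any other array, while its second probe stayed at -5.93 there. Of these 11, 5 were seen on arrays with wild-type Ezh2 and 6 on Ezh2-null arrays, 5 of those 6 diseased. There were 4 arrays with wild-type Ezh2, 4 Ezh2-null arrays without disease and 4 diseased ones.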

How the data were processed

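Total RNA of 12 samples was hybridised to one-colour Agilent arrays. The deposited files come from Feature Extraction 10.7.1.1, per the file headers, and the signal used is an intensity from which that program had already subtracted background. The deposited flags for control type and for signal well above background are recorded as unit other. The authors' value table holds the same intensity at all 62976 spots.

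Each array was scaled to its 75th percentile over gene spots, and log2 levels were fitted with limma 3.58.1 (R 4.3.3, lmFit and eBayes, two-sided, Benjamini-Hochberg over 13708 genes, threshold 0.05), a model tested on simulated data. Tests covered genes whose brightest probe exceeded background (the scanner flag) on 2 arrays or more. Symbols came from RefSeq accessions: 26762 of 55681 probes matched 1 symbol, 0 several and 28919 none. Ezh2 and Tet2 effects used the 8 arrays without disease with cell type as a term; GMP against LSK used all 12 with condition as a block; the other contrasts used all 12 with cell type and condition. With 1 array per group, p-values measure the spread across cell types and conditions.

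The members and lists were chosen with earlier results of these data known. Genes were named by a rule: members past a threshold, that appear or disappear, brightest, above background on all arrays, or up to 4 per direction where nothing was called; for lists, up to 4 genes by smallest p. The single-array members and T were named after their values were seen. Alternatives varied background correction, scaling, floor, filter, probe choice, model terms and arrays. The number of arrays limits the precision. Some genes are not reported here.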

Additional observations from a re-analysis of the deposited data

Results flagged for a closer look

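Among 70 sets of 6 arrays examined, 1 member in 1 cell type each, 4 had a value far from the other 5; chance alone marks about 1 in 20 such sets. Six2 on the GMP MDS/MPN array, at -0.82, lay above the nearest GMP array at -5.86. Dlx6os1 on the GMP double mutant array, at -2.09, lay above the nearest at -4.66. Tbx4 on the LSK wild-type array, at -2.93, lay above the nearest at -5.25. Nkx2-6 on the LSK RAEB array, at -3.73, lay below the nearest at -3.10. Each is the value of 1 array.

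The dimmer probes, which the comparisons do not use, showed signal above the wild-type array in 2 cases. The second probe of Six3os1 was at -3.07 on the GMP double mutant array and at -6.34 on the GMP wild-type array. The second probe of Tbx6 was at -2.85 on the GMP RAEB array and at -6.21 on the GMP wild-type array, whereas the brightest probe of Tbx6 was at -1.64 and -1.48 on the same arrays.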

How the results depend on the processing

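Across every alternative run, 0 members were called for Ezh2 loss, Tet2 knockdown, the Ezh2 effect between cell types, double mutant against wild-type, disease, and RAEB against MDS/MPN. For GMP against LSK the 11 calls became 7 with normexp background correction (3 higher, 4 lower) and ranged from 9 to 10 when 1 pair of arrays was left out. Other settings gave 8 to 14. Members that disappear fell from 1 to 0 when 3 of 4 arrays were required. Calls over all genes for Ezh2 loss moved from 26 to between 0 (without the wild-type, Ezh2-null or double mutant GMP array) and 78 (trend and robust), and for RAEB against MDS/MPN from 0 to 359 without the LSK RAEB array; these involved 0 members. For GMP against LSK, leaving out 1 array dropped its pair from the contrast. In the other comparisons a lone array left in a group was assumed to vary like the others.

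Of the named members' values, 31 turned sign, and each of them missed the threshold before and after. With normexp background correction these were Ezh2 loss for Nkx3-2 (-0.014), Tet2 knockdown for Dlx5 (0.027), the Ezh2 effect between cell types for Six5 (0.065), and disease for Sox12 (-0.093) and Lhx1 (-0.054). With a Tet2 by Ezh2 interaction, Nkx3-2 was at -0.30 for Ezh2 loss. With all 12 arrays and disease as a term, the Ezh2 effect between cell types was 0.35 for Six5, 0.12 for Dlx3 and 0.37 for Msx3. Other turns came from leaving out 1 array. For Ezh2 loss the value ran from -0.15 to 0.39 for Nkx3-2 and -0.0060 to 0.14 for Sox10. For Tet2 knockdown it ran from -0.45 to 0.025 for Dlx5. For the Ezh2 effect between cell types it ran from -0.042 to 0.86 for Sox1, -0.41 to 0.079 for Six5, -0.27 to 0.000179 for Dlx3 and -0.52 to 0.28 for Msx3. For double mutant against wild-type it ran from -0.98 to 0.14 for Dlx5. For disease it ran from -0.20 to 0.58 for Nkx3-2. For RAEB against MDS/MPN it ran from -0.12 to 0.98 for Six5, -0.064 to 0.78 for Tbx22, -0.35 to 0.74 for Sox4 and -0.82 to 0.072 for Lhx6. The cause was not tested.

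GMP and LSK arrays were matched by condition, which the fit holds as a block. No paired analysis was possible by replicate number or animal, because each group has 1 array and the labels give neither. Signals near background limit the dim members: differences of probes below about -4 rest on unmeasured values.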
